A study of Homo sapiens with 6 samples.

Results

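The genes described here are 123 pseudogenes that were detected repeatedly in MG63 cells: rows of the deposited table whose description holds the word pseudogene and whose value was above 0 in at least 3 of the 6 libraries. The members were thus selected on their own detection, and they were 123 of 17984 pseudogene rows (0.684%), in a table of 61806 genes. Among the other 43822 rows, 6.98% were detected as often. MG63 is an established human osteosarcoma cell line. Poly(A) RNA was sequenced from cells with a stable short hairpin against FTO (shFTO) and from cells with a control hairpin (shNC), with 3 biological replicates in each group. All 6 libraries came from the same line. The hairpin sequences were not given in the sources used here, nor whether each line was 1 clone or a pool.

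A pseudogene is a copy of a gene that has lost the ability to make the original protein. A processed pseudogene arose when a spliced messenger RNA was copied back into the genome, so it lacks introns and resembles the coding part of its parent gene; genes with abundant messenger RNA in the germ line have left many such copies. Some pseudogenes are transcribed, but a read from the parent can also align to a near-identical copy, and the reverse. FTO removes methyl groups from N6-methyladenosine in RNA.

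Values were in FPKM, fragment counts scaled to the exonic length of the gene and to the reads of the library. Each value was a whole multiple of what 1 read was worth, and this gave back the reads: 94349, 100992 and 93629 in the shNC libraries and 106245, 94083 and 103462 in the shFTO libraries, 592760 in all. FTO was listed at 0 in all 6 libraries, which allows up to 3 reads in each, so the knockdown could not be checked here. Of 9 genes chosen as MG63 markers, 6 had reads (454 in all, led by COL1A1 with 139), while the osteoblast genes ALPL, BGLAP and SPP1 were at 0. The 5 blood and 3 neural markers were at 0, 1 of 3 endothelial markers had 1 read, and 2 of 5 epithelial markers had 8 reads. No pair of libraries agreed within sampling noise (chi-square per degree of freedom 1.681 to 2.033).

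The 123 pseudogenes held 9754 reads. That was 1.646% of all reads and 96.46% of the 10112 reads on any pseudogene row. Most were thinly covered: the median was 14 reads over all 6 libraries, 16 had at least 100, 65 had 10 to 99 and 42 had fewer than 10. The 4 most-read members held 43.45% of the reads of the set and the top 12 held 71.12%. Detection in all 6 libraries was reached by 56 of them, and by 19, 23 and 25 in 5, 4 and 3 libraries. Below the rule lay 47 pseudogenes seen in 2 libraries and 162 seen in 1, and 17652 had no read. The best-covered members at the threshold were USP32P3, with 1, 10 and 0 reads in shNC and 3, 0 and 0 in shFTO, and BTBD10P1, with 4, 0 and 3 reads and then 0, 0 and 3. Just outside it were SPCS2P4, with 0, 4 and 0 reads and then 0, 0 and 2, and an MRTO4 pseudogene with 4, 0 and 0 and then 0, 0 and 2. These are the values that chose the members, and are given as a description.

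GENCODE 29 (GRCh38) classed 106 of the 123 as processed pseudogenes and 5 as transcribed processed ones. Another 5 were unprocessed, 3 transcribed unprocessed, 1 transcribed unitary, 2 were copies of small structural RNAs, and RAP1BL, a copy of the small GTPase gene RAP1B, was the 1 translated processed pseudogene. A single exon made up 111 of them. Along their best alignment to a protein-coding transcript the median identity was 97.34% (range 66.67 to 100%), with 83 members at 95% or more and 11 under 90%. A gene on the same strand overlapped 31 members, and in 6 cases that gene had reads of its own. The pairs of 100-base stretches printed next show how few bases differ between 6 members and their parents. They speak for these 6 pairs only. Capitals mark the bases that differ, and each stretch was chosen as the 100 bases with the most differences among those without a gap in the coding alignment.

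HNRNPA3P6: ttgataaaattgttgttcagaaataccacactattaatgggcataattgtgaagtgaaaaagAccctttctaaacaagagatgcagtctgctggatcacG
HNRNPA3: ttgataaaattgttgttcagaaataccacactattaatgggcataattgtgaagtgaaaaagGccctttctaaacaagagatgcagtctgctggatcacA
EIF2S2P4: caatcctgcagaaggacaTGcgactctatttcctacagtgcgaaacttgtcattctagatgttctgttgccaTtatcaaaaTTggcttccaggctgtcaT
EIF2S2: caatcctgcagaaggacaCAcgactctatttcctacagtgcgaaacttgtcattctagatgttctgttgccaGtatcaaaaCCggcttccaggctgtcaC
SETP14: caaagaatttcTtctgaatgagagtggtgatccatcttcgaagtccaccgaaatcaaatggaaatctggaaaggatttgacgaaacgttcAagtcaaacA
SET: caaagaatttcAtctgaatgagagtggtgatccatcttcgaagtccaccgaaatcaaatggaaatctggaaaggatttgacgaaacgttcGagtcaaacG
PPIAP31: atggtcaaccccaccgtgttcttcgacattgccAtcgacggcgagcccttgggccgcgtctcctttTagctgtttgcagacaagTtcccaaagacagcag
PPIA: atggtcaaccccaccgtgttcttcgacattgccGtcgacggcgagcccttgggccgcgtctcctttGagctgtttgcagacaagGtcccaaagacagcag
ENSAP2: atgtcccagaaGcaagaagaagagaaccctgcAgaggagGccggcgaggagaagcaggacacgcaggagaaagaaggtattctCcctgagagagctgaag
ENSA: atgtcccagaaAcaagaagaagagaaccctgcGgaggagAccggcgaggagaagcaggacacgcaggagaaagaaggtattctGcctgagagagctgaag
H3P47: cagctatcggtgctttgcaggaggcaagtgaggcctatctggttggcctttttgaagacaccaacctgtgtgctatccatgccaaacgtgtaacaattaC
H3-3A: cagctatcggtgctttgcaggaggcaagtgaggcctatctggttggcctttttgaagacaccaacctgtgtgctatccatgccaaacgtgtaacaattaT

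In GRCh38 the pseudogene stretches lie at chr3:75215088-75215187 on the plus strand (HNRNPA3P6), chr2:170752652-170752751 on the plus strand (EIF2S2P4), chr3:155987762-155987861 on the plus strand (SETP14), chr10:32188718-32188817 on the minus strand (PPIAP31), chr14:82692956-82693055 on the minus strand (ENSAP2) and chrX:123514729-123514828 on the plus strand (H3P47). All 6 were processed pseudogenes of 1 exon. Over the whole coding alignment, which covered 999 of the 1134 coding bases of HNRNPA3, 995 bases of HNRNPA3P6 matched (99.6%). That alignment held 1 gap, and 2 of its differences lie in the stretch shown. Along its best transcript alignment, the measure behind the median given before, HNRNPA3P6 matched HNRNPA3 at 94.5%. EIF2S2P4 matched EIF2S2 at 98.88% of 981 coding bases, and its stretch held 6 of the differences. PPIAP31 matched all 495 coding bases of PPIA at 98.18%, and 1 of its 3 differences here made codon 23 of the parent's reading frame a stop codon, tag. No other of the 6 stretches held a stop codon in the parent's frame.

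Sequence shared exactly with coding transcripts was measured in windows slid along each pseudogene, since the read length is not given in the sources used here. Coding transcripts that overlap the pseudogene itself on the same strand were not left out of this search. Of the 50-base windows of a member, a median of 33.16% occurred unchanged in a protein-coding transcript, and 91.9% of the members had such a window. For the 205 pseudogenes detected in 1 or 2 libraries whose sequence was available and long enough, the median was 9.677%. For the 17534 without a read that met the same condition it was 0, with 30.7% having any such window. The order was the same with 100-base windows, of which 74.8%, 44.6% and 10.5% of the 3 sets had at least 1, and with 150-base windows (46.3%, 24.7% and 6.3%). Pooled over copies of the same parents, the 87 members with a parent had a median of 33.09% of their 50-base windows in coding transcripts. The 981 pseudogenes of those parents that had no read had a median of 0. This pool was not matched parent by parent. It took in copies of RN7SK, a noncoding RNA gene, for which the search does not measure likeness to the parent. Of 293 listed RN7SK copies, 288 had no read and 1 was a member. Genes copied from the same parent share sequence and are not independent, so no test was made.

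**Figure D1:**
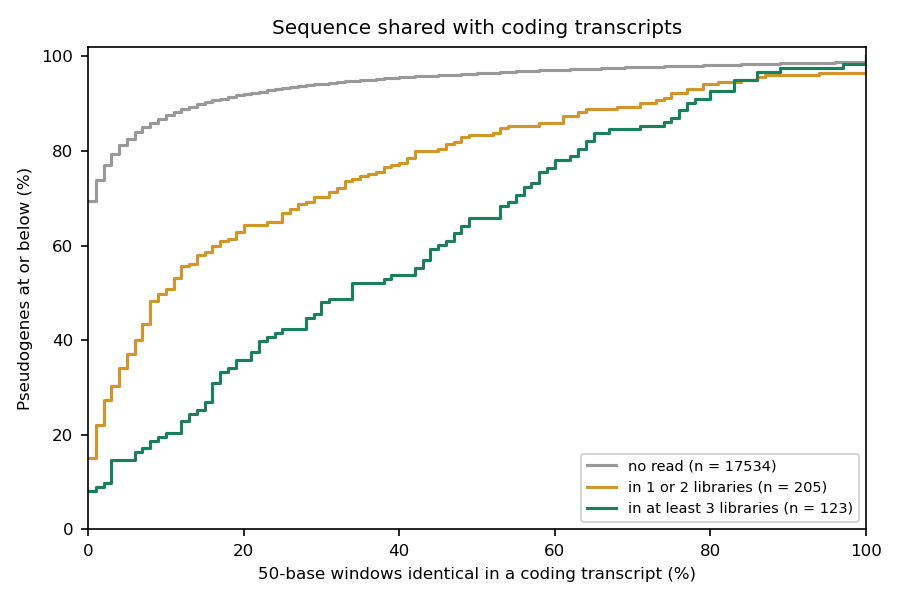
Cumulative share of pseudogenes (%, vertical axis) against the percent of their 50-base windows found unchanged in a protein-coding transcript (horizontal axis), for pseudogenes with no read, in 1 or 2 libraries and in at least 3. The curve of the 123 repeatedly detected pseudogenes lies lowest over most of the axis, with a median of 33.16% against 9.677% and 0.

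Among the copies of a single parent the pattern varied. HNRNPA3, which encodes a nuclear RNA-binding protein, had 16 pseudogenes listed by symbol, of which 5 were members and 9 had no read. HNRNPA3P6 shared 76.6% of its 50-base windows with coding transcripts and had 1979 reads, the most of any member. The other 4 shared 7.89 to 33.8% and had 8 to 26 reads, while none of the 9 without reads shared more than 2.703%. The other large families mostly had no reads in this table. Of 89 listed copies of PPIA, the gene of the folding enzyme cyclophilin A, 82 had no read and 4 were members. Of 53 copies of the ribosomal protein gene RPS3A, 52 had no read. In these families some copies without reads shared more than any member did. The members from PPIA shared 8.241 to 28.25% of their 50-base windows and the copies without reads up to 78.17%. The RPS3A member shared 43.78% against up to 79.09%. Copies of RPL12, NPM1 and HMGB1 without reads also reached 100, 100 and 87.3%, above the highest members (57.59, 54.16 and 55.02%). For HNRNPA1 and EEF1A1 the order was the other way: the highest members shared 79.85 and 85.07%, the copies without reads at most 27.26 and 32.22%. Whether overlap with a coding gene at a copy's own place adds to any of these shares was not tested. Across the 123 members the Spearman correlation of reads with identity was 0.15 and with the share of 100-base windows 0.17, given as descriptions across genes.

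Both LSM12P1 and H3P6 had every 50-base window in a coding transcript. LSM12P1 is a copy of the gene of an RNA-binding protein of the Like-Sm family, and all 588 of its bases matched LSM12. At the other end, 10 members had no 50-base window in any coding transcript, and together they had 272 reads: RPS2P18, RPL31P11, EIF1P5, ZNF271P, RN7SKP203, RN7SL5P and 4 known by identifier only. The parents of RN7SKP203 and RN7SL5P make noncoding RNA, so for these members the search did not measure likeness to the parent. RPS2P18, a copy of the gene of a small-subunit ribosomal protein, had 63 reads, against 31 for RPS2 itself. These genes and those of the next paragraphs that the naming rule did not pick were chosen after their values were seen.

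By role, copies of genes for hnRNP and other RNA-binding proteins made up 16 members with 4101 reads, 42% of the set. They summed to 709 ± 18.6 reads per 100000 in shNC and 677 ± 13.3 in shFTO (SD, n = 3 in each group here and throughout). This was the 1 group of copies of 9 whose sums did not overlap between shNC (690 to 727) and shFTO (662 to 687), and without HNRNPA3P6 they overlapped. Of all single genes detected in at least 3 libraries, 6.07% were lower in shFTO without overlap and 4.56% were higher. HNRNPA3P6 stood at 3540.0, 3445 and 3514 FPKM in the shNC libraries and at 3116, 3339 and 3007 in the shFTO libraries. All 3 shFTO values were below all 3 shNC values, with a difference of -0.15 in log2(FPKM + 1) (SE 0.05) that did not pass limma's test after Benjamini-Hochberg adjustment (adjusted p = 0.772). Its parent HNRNPA3 stood at 5315 ± 193 and 5423 ± 228 FPKM. A further copy of HNRNPA3 known by identifier only (ENSG00000232499), which overlaps MAGI3 on the same strand, had 864 reads and gave 1434 ± 89.6 and 1406 ± 128 FPKM. MAGI3 itself had 4 reads.

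LSM12P1 ranged from 2139 to 2379 FPKM in shNC and from 2129 to 2433 in shFTO, so the groups overlapped. LSM12 had 333, 321 and 319 FPKM in the controls and 284, 242 and 298 after knockdown, and this difference of -0.24 did not pass limma's test (adjusted p = 0.772). Of the reads on this pair, 56.7 ± 0.875% were counted to the pseudogene in shNC and 60.9 ± 2.41% in shFTO. How reads that align in more than 1 place were assigned is not given in the sources used here, and its part in these shares was not tested. YBX1P10 and YBX1P1, copies of the gene of a Y-box RNA-binding protein, had 196 and 136 reads beside 13242 on YBX1. A copy known by identifier only (ENSG00000234241), of the gene SYNCRIP, whose protein also binds RNA, was counted with the ungrouped members and had 290 reads beside 5031 and gave 295 ± 53.6 and 284 ± 59.3 FPKM.

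Copies of translation factor genes were 14 members with 1667 reads, 17.1% of the set, at 271 ± 33.4 reads per 100000 in shNC and 290 ± 50 in shFTO. EIF2S2P4, copied from the gene of the beta subunit of initiation factor eIF2, measured 894, 825 and 1183 FPKM in the shNC libraries and 1339, 778 and 1208 in the shFTO libraries. The groups overlapped (adjusted p = 0.871, limma), and the pseudogene exceeded EIF2S2 in every library: it had 609 reads against 133 for the parent, or 82 ± 3.47% and 81.6 ± 2.57% of the pair. EEF1A1P5, a copy of the gene of elongation factor eEF1A1, had 430 reads against 841, and its 1389 bases matched the parent at 99.7%. EIF4EP2, a copy of the cap-binding protein gene EIF4E, had 343 reads against 636, at 812 ± 188 FPKM in the controls and 954 ± 56.2 in the knockdown cells.

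**Figure D2:**
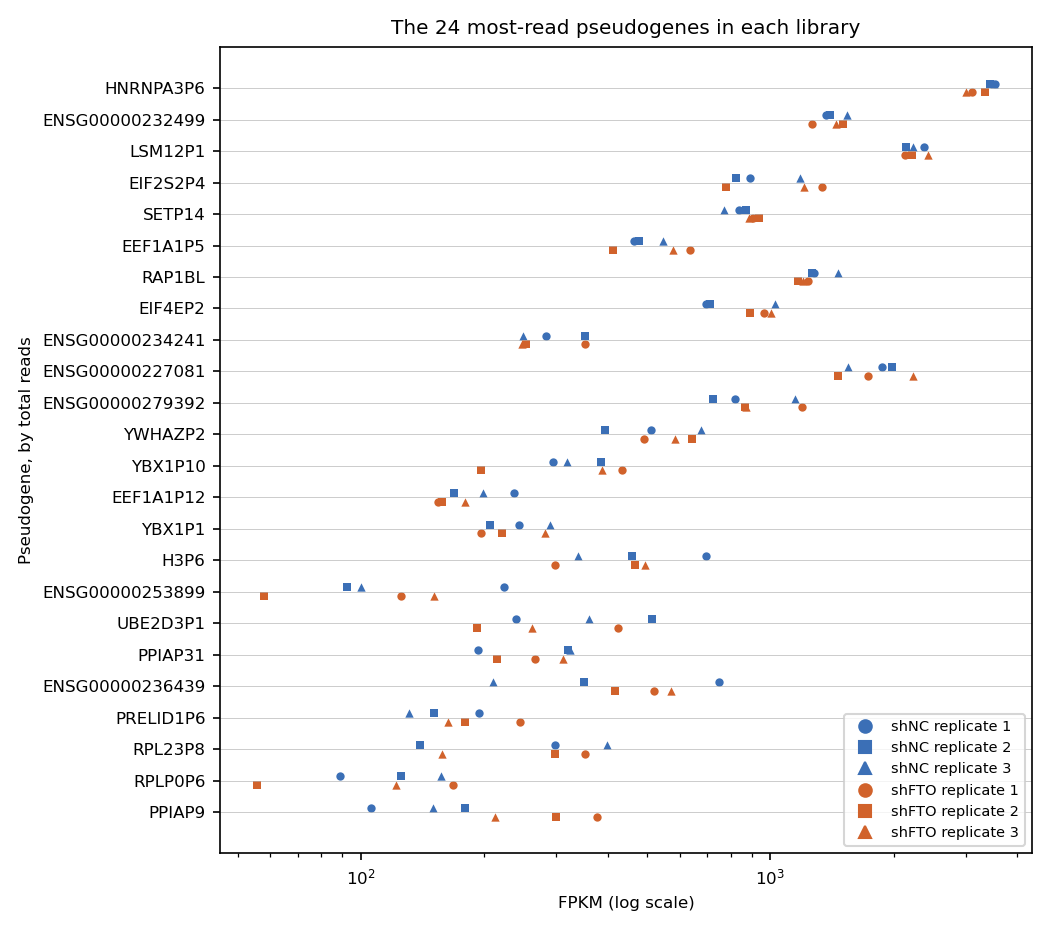
FPKM (log scale, horizontal axis) of the 24 most-read pseudogenes in each of the 3 shNC and 3 shFTO libraries, with 1 symbol per library. HNRNPA3P6 is highest and the shFTO symbols of PPIAP9 lie right of its shNC symbols, while for most of the others the 2 colours mix.

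Ribosomal protein copies were the largest group by number, with 24 members, but held 843 reads, 8.64% of the set. The most-read was a copy of RPS27 known by identifier only (ENSG00000227081), with 274 reads beside 452 on RPS27. It ranged from 1549.7 to 1980.3 FPKM in shNC and from 1459 to 2236 in shFTO. RPL23P8 had 69 reads against 20 on RPL23. Histone and chromatin copies were 10 members with 805 reads: SETP14, a copy of the gene of the histone chaperone SET, measured 838, 873 and 771 FPKM in the controls and 906, 937 and 886 in the knockdown cells. These 2 ranges did not overlap, but the difference of 0.14 did not pass limma's test (adjusted p = 0.772). H3P6 had 111 reads and matched the histone H3.3 gene H3-3A in all its bases, beside 143 reads on H3-3A.

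Copies of chaperone and folding genes, a group in which 14-3-3 genes were also counted, were 6 members with 439 reads. Of these reads, 236 lay on YWHAZP2, a copy of the gene of a 14-3-3 protein and not of a folding enzyme. PPIAP31 and PPIAP9 had 80 and 66 reads, while PPIA had 27. The 6 ubiquitin and proteasome copies held 414 reads, of which 259 lay on a copy of UBE2L3, a ubiquitin-conjugating enzyme gene. Cytoskeletal copies (4 members, 67 reads) and copies of the mitochondrial genome (2 members, 25 reads) were few. Among the remaining 41 members RAP1BL led, with 417 reads, at 1336 ± 109.6 FPKM in shNC and 1203 ± 34.9 in shFTO. These 9 groups were drawn up by hand for this description.

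A parent could be assigned by symbol to 87 members, and these had 64 parents, 12 of them with more than 1 member. For 83 of the 87 the best-aligning coding gene was that parent. By FPKM the pseudogene was above its parent in 38 pairs, and by reads in 15. The 2 counts differ because the deposited exonic length of a parent covers the exons of all its transcripts, with a median of 5940.0 bases against 881.0 for the pseudogenes, so the same number of reads gives a lower FPKM. The median ratio of pseudogene to parent was 0.631 in FPKM and 0.0949 in reads. The Spearman correlation of the reads of pseudogene and parent was 0.20 over the 87 pairs, given as a description. EIF1, an initiation factor gene with 19188 reads, had EIF1P5 with 13 reads, and EIF2S2P4 was covered more deeply than its parent.

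**Figure D3:**
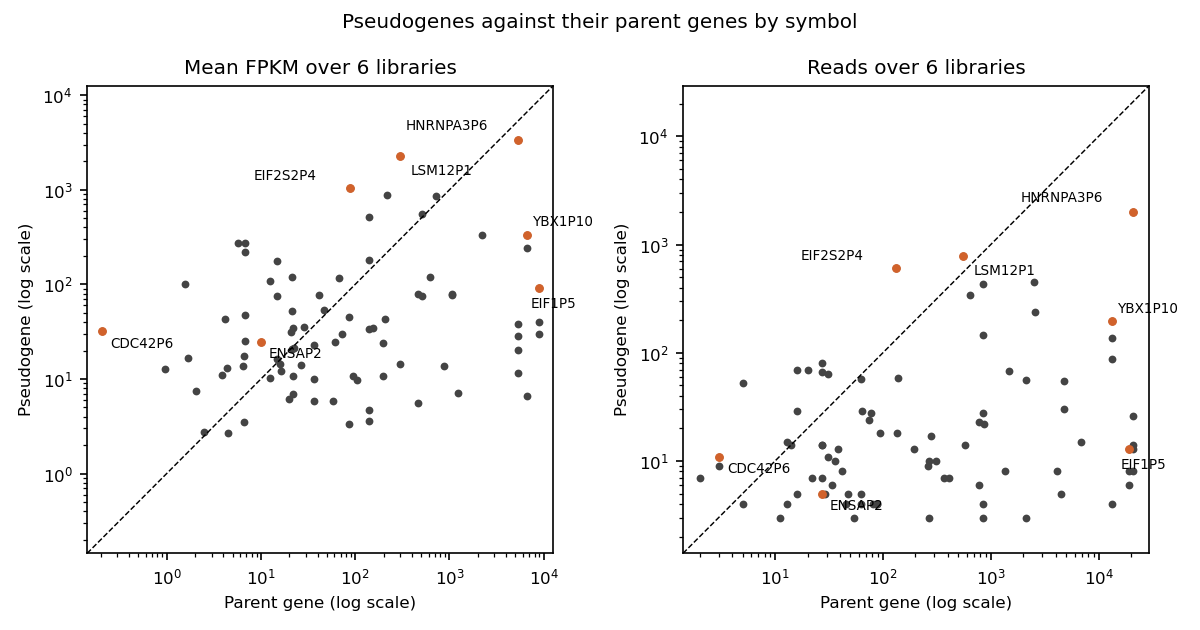
Level of each pseudogene (vertical axis) against its parent gene (horizontal axis), as mean FPKM (left) and reads over all libraries (right), both on log scales, for the pairs whose parent had a read. Dashed lines mark equality: 38 of 87 pairs lie above it by FPKM and 15 by reads, counting the 2 pairs whose parent had no read.

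The pairs with a pseudogene ahead of its parent in reads were LSM12P1, EIF2S2P4, PPIAP31, PPIAP9, PRELID1P6, PRELID1P5, RPL23P8, RPS2P18, MEMO1P1, TLE1P1, CDC42P6, EIF4A1P10, EEF1B2P3, RN7SKP203 and BTBD10P1. Apart from LSM12 (553 reads) and EIF2S2 (133), each of these parents had 31 reads or fewer in this table. The part that reads aligning in more than 1 place had in this order was not tested. MEMO1P1, a copy of the gene of a regulator of cell motility, had 53 reads against 5 for MEMO1. CDC42P6, a copy of a small GTPase gene, had 11 reads against 3, and its best coding match was another gene. BTBD10 and RN7SK, the gene of a small nuclear RNA without a poly(A) tail, had no read at all, beside 10 and 14 reads on BTBD10P1 and RN7SKP203. Among members with at least 10 reads, the lowest FPKM ratios belonged to copies of HNRNPA3: HNRNPA3P12, HNRNPA3P5 and HNRNPA3P10 had 13, 14 and 26 reads beside 20845. None of the 61 parents that could be tested was called different between shFTO and shNC (lowest adjusted p = 0.772, limma).

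**Figure D4:**
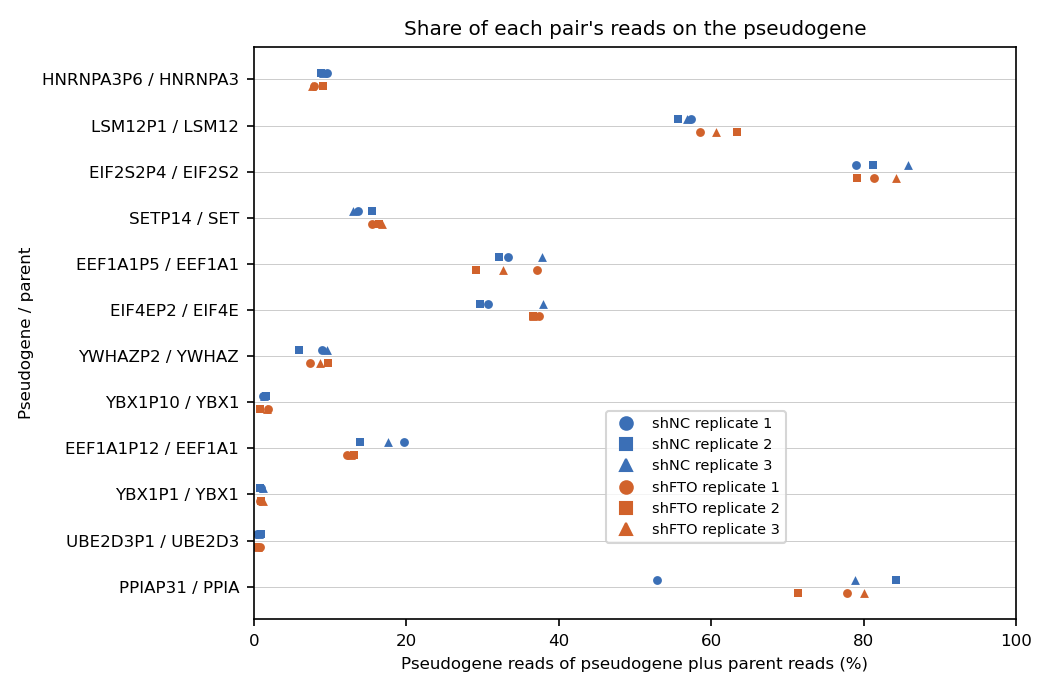
Share of each pair's reads that was counted to the pseudogene (%, horizontal axis) in each library, for the 12 most-read pseudogenes with a parent by symbol, with 1 symbol per library. The share lies near 82% for EIF2S2P4, at 56.7% (shNC) and 60.9% (shFTO) for LSM12P1 and under 3% for YBX1P10, YBX1P1 and UBE2D3P1.

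Between shFTO and shNC the set as a whole hardly moved. The 3 shNC libraries had 1.665, 1.575 and 1.696% of their reads on the 123 pseudogenes and the 3 shFTO libraries 1.697, 1.55 and 1.685%, a difference of means of -0.002 percentage points beside SDs of 0.0627 and 0.0817. The number of members detected was 105, 94 and 99 in shNC and 103, 97 and 100 in shFTO. The median log2 fold change was 0.006 over the members and 0.004 over all 4932 tested genes. Among the 16 members with at least 100 reads the differences ran from -0.29 (EEF1A1P12) to 0.25 (EIF4EP2), with a median size of 0.14, beside 0.15 for the 520 tested genes covered as deeply. None of the 16 had an adjusted p below 0.772 in limma's test. In bulk RNA, fewer cells with a transcript and less of it per cell cannot be told apart.

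Of all 4932 genes tested with limma, 2 passed an adjusted p of 0.05 (0.0406%), and both were members with few reads (2 of 123, beside 0.0671% of the tested genes detected in at least 3 libraries): ENSAP2 and H3P47, each lower in shFTO. ENSAP2, a copy of the gene of the phosphatase regulator alpha-endosulfine, had 3, 1 and 1 reads in shNC and 0, 0 and 0 in shFTO. Those are 49.6 ± 35.3 FPKM against 0, and a fitted difference of -5.45 (SE 0.75, adjusted p = 7.86e-05) whose size depends on the pseudocount and is no bound. By counting error alone the 95% interval of the read ratio was 0 to 1.04, which includes equality. ENSAP2 met the detection rule through its shNC libraries only. Its parent ENSA, with 27 reads, had 5, 8 and 3 in shNC and 5, 6 and 0 in shFTO (adjusted p = 0.772).

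H3P47, a copy of the histone gene H3-3A, had 2, 3 and 6 reads in shNC and 1, 1 and 1 in shFTO. In FPKM this was 95.8 ± 56.8 against 24.8 ± 1.6, a difference of -1.76 (SE 0.34, adjusted p = 0.0259, limma) with a read ratio of 0.259 and a counting interval of 0.0465 to 0.982. Each shFTO library held 1 read, so the SD in that group reflects the library totals alone. H3-3A had 76 and 67 reads in the 2 groups, and the 3 other members that matched it best, H3P6, H3P36 and H3P16, had 59 and 52, 16 and 29, and 13 and 21. Neither pseudogene passed limma-voom on the recovered reads, which weights a gene by its depth (adjusted p = 0.643 for ENSAP2 and 0.793 for H3P47). ENSAP2 was no longer called without shNC replicate 1 (adjusted p = 0.113), nor H3P47 without shNC replicate 3 or any 1 of the shFTO libraries (0.217 to 0.385).

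**Figure D5:**
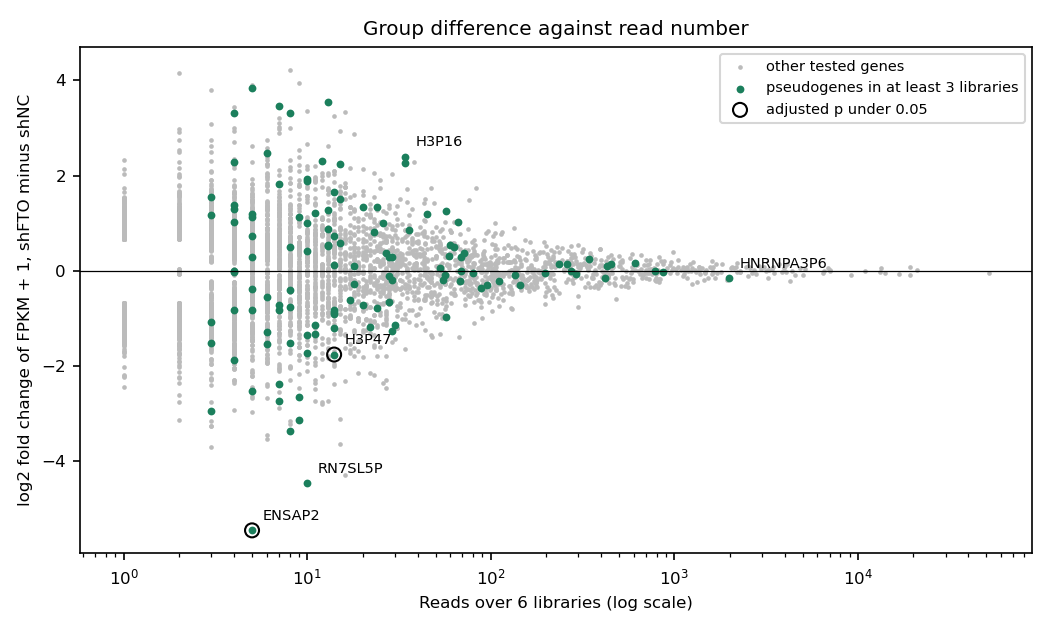
Difference in log2(FPKM + 1), shFTO minus shNC (vertical axis), against reads over all 6 libraries (log scale, horizontal axis), for each tested gene, with the 123 pseudogenes in green and genes with an adjusted p under 0.05 circled. The spread narrows as reads increase, and the circled ENSAP2 and H3P47 have 5 and 14 reads.

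Without adjustment, 15 of the 123 members (12.2%) had p under 0.05 in limma's test, 7 lower and 8 higher in shFTO (2.48% and 2.62% of the genes detected as often), beside 190 of all 4932 tested genes (3.85%) and 152 of the 2979 detected in at least 3 libraries (5.1%). Of those 15, HNRNPA3P6 and PPIAP9 had 1979 and 66 reads and the others 3 to 24. The ranges of the 2 groups did not overlap for 7 members lower in shFTO (5.69%, beside 6.07% of all genes detected as often) and for 8 members higher (6.5%, beside 4.56%). Those lower were HNRNPA3P6, RAP1BL, ENSAP2, H3P47, RN7SL5P, RPL31P11 and EIF4A2P4, and those higher were SETP14, PPIAP9, HNRNPA1P30, ACTBP2, EIF1P5, CDC42P6, EEF1B2P3 and EEF1A1P6. The last 2 shares lie near those of all genes detected as often. RPL31P11 had 1 read in each shNC library and none in shFTO, and EEF1A1P6 had 2, 1 and 1 reads in shFTO and none in shNC, so both met the rule through 1 group.

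PPIAP9 was the higher member with most reads after SETP14. It had 5, 9 and 7 reads in shNC and 20, 14 and 11 in shFTO, a difference of 1.02 (SE 0.22) that did not pass limma's test (adjusted p = 0.312). It was called under 5 alternatives: a pseudocount of 0.1, no filter on low values, the replicate block, and without shNC replicate 2 or shFTO replicate 3. The read ratio was 2.04, with a counting interval of 1.19 to 3.6. PPIA had 12.5, 4.38 and 6.3 FPKM in the controls and 5.55, 6.27 and 5.7 in the knockdown cells, and PPIAP31 at 279 ± 74.6 and 264 ± 48.9, so neither was higher in shFTO on average. The largest fitted differences otherwise came from members with 0 reads in some libraries. EIF1P5 had 1, 0 and 1 reads and then 3, 3 and 5 (3.55, SE 1.81, adjusted p = 0.772), and RN7SL5P, a copy of the gene of the signal recognition particle RNA, had 3, 2 and 3 reads and then 2, 0 and 0 (-4.46, SE 1.92, adjusted p = 0.772). A copy of RPS27 (ENSG00000234287) had a fitted difference of 2.30, and RBBP4P2 and BTBD10P1 of -1.35 and -1.72, each with at least 1 library at 0, overlapping groups and adjusted p of 0.772 to 0.825 in limma's test. H3P16, with 5, 0 and 8 reads in shNC and 7, 10 and 4 in shFTO, had overlapping groups and a fitted difference of 2.40 that became -0.06 without shNC replicate 2.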

How the data were processed

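RNA of 6 MG63 libraries (3 shNC, 3 shFTO) was analysed from 1 deposited table of FPKM per gene, which the authors made; it also gives each gene's exonic length in bases (a further deposited value, used as such). The submitters' processing notes name FastQC 0.10.1, HISAT2 2.2.1, StringTie 1.3.3b, HTSeq 0.6.1, DESeq2 1.50.2 and GRCh38. The series text calls the libraries strand-specific. The counting's strand setting, the treatment of reads with several alignments and the read length were not given in the sources used here.

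Reads were recovered as FPKM times length times the library total that made values whole. All values were whole within 0.05 read. Totals of 93629 to 106245 reads per library limit the precision, and whether the table was made from all reads of a library was not given in the sources used here, so read numbers and zeros refer to this table only; intervals (95%, exact, on read ratios) and the floor of 3 reads for a 0 cover counting error only.

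Groups were compared in limma 3.58.1 (R 4.3.3, trended and robust variance) on log2(FPKM + 1), with genes of a mean of at least 1 FPKM in either group and Benjamini-Hochberg adjustment at 0.05 over all 4932. A fold change on this scale understates the change of low genes. The script was tested on simulated data in which only genes with more reads than ENSAP2 and H3P47 were changed. That test does not cover calls at their depth. Alternatives were a pseudocount of 0.1, no filter, at least 10 reads, limma-voom on recovered reads, median-of-ratios scaling, a replicate block and leaving out each library.

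Transcripts of GENCODE 29 were aligned with BLAST+ 2.17.0, and 50-, 100- and 150-base windows were searched in protein-coding transcripts. Parents were taken from symbols where a coding alignment or symbol match existed. Named genes are those called, the 12 most-read and, among members with at least 10 reads, the 4 highest and 4 lowest log2 fold changes and the 6 highest and 3 lowest FPKM ratios to the parent, plus 2 members on either side of the detection threshold. A gene this rule picked is not reported here. The members and lists were chosen with earlier results of these data known.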

Additional observations from a re-analysis of the deposited data

How the results depend on the processing

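Depth limits most results: 42 of the 123 pseudogenes had fewer than 10 reads over 6 libraries, where 1 read decides a value. The 2 genes called became 7 with a pseudocount of 0.1, 9 without a filter on low values, 0 with at least 10 reads (limma, 101 of 1932 at an unadjusted p under 0.05), 5 with limma-voom and 2 to 9 when 1 library was left out. The 2 pseudogenes called became 5, 5, 0 (7 of 81 unadjusted), 0 (8 unadjusted) and 1 to 5 under the same settings. The pseudogenes called were 3 higher and 2 lower with a pseudocount of 0.1 and without a filter (PPIAP9, EEF1B2P3 and FAR1P1 higher), so the direction of the main calls did not hold for the added ones. The lowest count came without shFTO replicate 2 and the highest without shNC replicate 2. With a replicate block, 17 genes and 7 pseudogenes were called (4 higher, 3 lower). The labels do not say that the numbers pair the libraries. Deviations of same-numbered libraries from their group means correlated at -0.00292, 0.0392 and -0.0116 over 705 genes. With the counting noise at this depth, these values cannot show whether the libraries were paired. H3P47 gave an adjusted p of 0.484 (limma) with at least 10 reads, and with 1 library left out its log2 fold change was -2.10 to -1.31 and that of ENSAP2 -5.74 to -4.92. RN7SL5P was called without shFTO replicate 1 (-6.42) and EIF1P5 without shNC replicate 2 (1.70).

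The difference in the share of reads on the set turned sign, from -0.037 to 0.045 percentage points with 1 library left out and 0.033 without HNRNPA3P6, all within the SD. Requiring detection in all 6 libraries left 56 pseudogenes, and in recovered reads 15 of 87 pseudogenes were above their parents. The estimates that turned sign were near 0 or rested on few reads. Median-of-ratios scaling gave -0.01 for LSM12P1 and RPL23P8, and limma-voom 0.19 for RN7SKP203. With 1 library left out, the log2 fold changes ran from -0.08 to 0.04 (ENSG00000232499), -0.05 to 0.05 (LSM12P1), -0.02 to 0.29 (EEF1A1P5), -0.22 to 0.08 (ENSG00000234241), -0.17 to 0.14 (ENSG00000227081), -0.02 to 0.33 (ENSG00000279392), -0.04 to 0.34 (YWHAZP2), -0.06 to 3.80 (H3P16), -0.30 to 0.09 (PPIAP31), -0.43 to 0.35 (RPL23P8), -0.19 to 0.41 (MEMO1P1), -2.11 to 1.49 (RN7SKP203) and -0.73 to 1.90 (HNRNPA3P12). Another 308 recomputed values were classed as the same. Those of single genes kept their direction and side of the threshold. The counts among them were of similar size to the main count. The differences in the share of reads, some of which turned sign, stayed within the SD. The cause of these changes was not tested.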
